A study of Chlorocebus sabaeus with 6 samples.

Results

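Chromosome 15 of the deposited table holds 876 features, and the 619 of them whose FPKM averaged 1 or more across the 6 libraries are described here. The whole table holds 51520 features, of which 28434 reach that level. FPKM counts fragments per kilobase of a feature, scaled to the size of the library. The first of the 619 starts at position 23918 and the last ends at 91744925, in the coordinates of the deposited table, whose genome build is not given in the sources used here. The chromosome was singled out because most of its features were known to be lower in the lentivirus libraries. Its overall shift is therefore given as a description, without a test.

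The libraries are poly-A RNA from COS-1 cells, an African green monkey (Chlorocebus sabaeus) kidney line transformed with simian virus 40. Of the 6 libraries, 3 are from control cells labelled as not treated and 3 from lentivirus-treated cells. Both groups went without serum for 14 h before 90 min of epidermal growth factor (2 ng/ml), which activates ERK1/2 through its receptor, so every library is from stimulated cells. What the lentivirus carried is not in the labels, nor whether treated cells were a pool or a clone, nor whether replicates were separate cultures. Exposure to virus and the effect of its cargo cannot be told apart with these groups. The p-values rest on the spread among these 6 libraries alone, and that spread may be technical.

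The series concerns SHOC2, a scaffold protein that binds RAS and RAF and promotes signalling through the ERK1/2 cascade. Lentiviral vectors insert into host DNA at many sites, with a preference for transcribed genes. The genes of one chromosome mostly have unrelated functions and are read from their own promoters, so a chromosome is a set defined by position and not by pathway. The files hold RNA values only.

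Features carry accessions and no gene symbols. None is named here beyond its position, apart from 2 that fell and 2 that rose, whose accessions are given. Neither SHOC2 nor any cell type marker could be looked up. Of the 619 features, 320 have accessions beginning with ENSP, the form of Ensembl protein identifiers, and 299 have accessions beginning with JK. A total of 252 overlap no other feature of the table (40.7%, against 34.9% of tested features elsewhere), while the other 367 overlap between 1 and 30 features and may share fragments with them. None of the 619 accessions was placed at another position as well. The number of reads behind a value is unknown, because FPKM keeps no counts. Column totals ranged from 2094230 to 2206930 FPKM.

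Chromosome 15 features were lower in lentivirus-treated than in control cells by a small amount that was alike in all libraries. The median change was -0.16 on the log2(FPKM + 1) scale, against 0.0017 over the 27815 tested features elsewhere, and the quartiles were -0.33 and 0.025, against -0.16 and 0.16 elsewhere. In linear terms, the median ratio of the lentivirus mean to the control mean was 0.881, with quartiles of 0.769 and 1.02. A lower lentivirus mean was found in 447 of 619 features (72.2%), against 49.7% elsewhere. In RNA from whole cultures, fewer cells of a kind and less RNA per cell cannot be told apart.

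Each library was summarised by the median over the 619 features of log2(FPKM + 1) minus that feature's mean over the 6 libraries. Control libraries 1, 2 and 3 had medians of 0.088, 0.083 and 0.083 log2, and lentivirus libraries 1, 2 and 3 had medians of -0.085, -0.074 and -0.082. The group means were 0.085 ± 0.0031 and -0.080 ± 0.0055 log2 (SD, n = 3), so the groups lay far apart beside their own spread. The same summary over features elsewhere, pooled, gave 0.0057 ± 0.0077 and 0.0031 ± 0.0083 log2, with groups that overlapped. Groups that lie apart are not particular to chromosome 15. On chromosome 26 the group means were 0.096 ± 0.0041 in control and -0.086 ± 0.0093 log2 in lentivirus libraries, without overlap. Chromosome 20 went the other way, also without overlap, at -0.052 ± 0.0095 and 0.058 ± 0.0056 log2.

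Taking libraries in pairs showed the same separation without any averaging. In the 9 pairs of a lentivirus and a control library, 67.0% to 70.1% of the 619 features were lower in the lentivirus library, with median differences of -0.15 to -0.18 log2. In the 6 pairs of libraries from the same group, 47.5% to 51.5% were lower in the later-numbered library, with median differences of -0.0041 to 0.0081 log2. The pairs share libraries and are not independent of each other, and their direction was known when the chromosome was chosen.

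**Figure D1:**
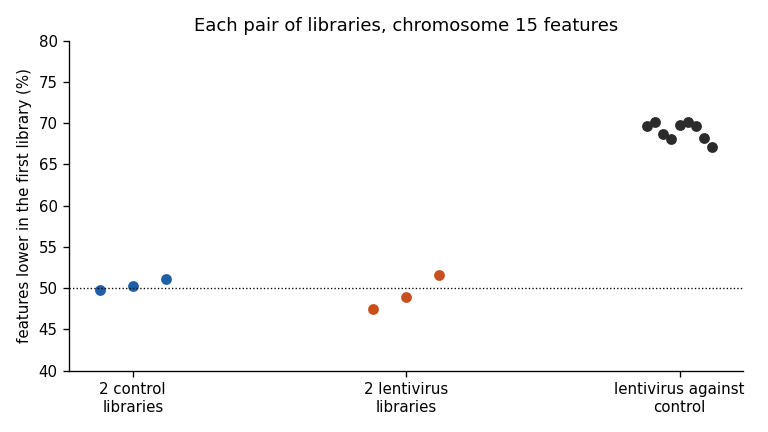
Percentage of the 619 chromosome 15 features that were lower in the first library of a pair, for 3 pairs of control libraries, 3 pairs of lentivirus libraries and the 9 pairs of a lentivirus and a control library, with 1 point per pair. Same-group pairs lie between 47.5% and 51.5%, and lentivirus against control pairs lie between 67.0% and 70.1%.

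The summed FPKM of the 619 features was lower in every lentivirus library than in any control library. The sum was 39201, 38525 and 39494 FPKM in control libraries 1, 2 and 3 and 35163, 34857 and 35386 in lentivirus libraries 1, 2 and 3. As a share of all FPKM it was 1.80% ± 0.013 (SD, n = 3) in control libraries, and the lentivirus libraries had 1.64% ± 0.040. A few abundant features weigh heavily in such a sum: the feature from 46396535 to 46396631 held 19.1% of it on average, at 7151 ± 160 FPKM in control and 6990 ± 829 FPKM in lentivirus-treated cells. Its log2 change was -0.039 with SE 0.091, and it was not called (limma adjusted p = 0.84). A cluster of 21 overlapping features near position 68597000 held the next 4 most abundant members, whose log2 changes ran from -0.035 to -0.13, none of them called. The sum over the 252 features that overlap no other was 6862 ± 125 FPKM in control and 5951 ± 136 FPKM in lentivirus-treated cells.

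Single features were tested with limma over all 28434 tested features, with Benjamini-Hochberg adjustment over all of them and a threshold of 0.05. On chromosome 15, 94 features fell (15.2%) and 4 rose (0.646%). Over the whole table, 3.59% of tested features fell and 2.89% rose. Among the 252 features that overlap no other, 44 fell and 3 rose, where such features over the whole table fell in 4.95% and rose in 3.82%. The chromosome was chosen with this contrast known, so nothing is read from these shares. At an unadjusted limma p under 0.05, 204 chromosome 15 features were lower (33.0%, against 12.8% of all tested features) and 28 higher (4.52%, against 11.4%). The calls needed all 6 libraries: without any 1 library, 3 or 4 features were called lower and 0 to 2 higher, while 176 to 186 were lower and 20 to 25 higher at an unadjusted p under 0.05. The shares of all tested features at that unadjusted p in these smaller fits are not given here, so nothing is read from those counts. Calls over the whole table, in either direction, dropped likewise, from 1842 to between 48 and 118.

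Most of the falls were modest. The 94 called changes had a median of -0.45 log2, from -1.73 to -0.21, and 32 reached -0.5. All 3 control values lay above all 3 lentivirus values in 241 of the 619 features, and all lay below in 42. Over the whole table those shares were 16.5% and 15.1%. The 94 features lie in 75 loci, where a locus is a group of overlapping features or a single feature that overlaps no other. Some of the 94 may therefore measure the same transcript. With overlapping features summed into 1 value each, the 378 resulting loci gave 119 falls and 11 rises, where 10.6% and 8.88% of 16072 loci over the whole table did so.

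The change was uneven along the chromosome, with low values towards both ends and values nearer 0 in the middle. The first 5 Mb were an exception, with a median of -0.099 log2. In bins of 10 Mb counted from the chromosome's start, the first 4 bins had median changes of -0.24, -0.24, -0.29 and -0.22 log2. Bins 5 to 8, from 40 to 80 Mb, had medians of -0.079, -0.038, -0.079 and -0.067. Bin 9 had a median of -0.12 and bin 10, which ends with the chromosome's last feature, one of -0.31. The bins held between 19 features (bin 3) and 152 (bin 1), so the value of bin 3 rests on few features. The value of bin 9 depended on single libraries: it was -0.26 without control replicate 3, -0.19 without lentivirus replicate 2 and -0.23 without lentivirus replicate 3.

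Bin by bin, the features that overlap no other departed from these values in places. Their median in bin 1 was -0.10 log2 (44 features), nearer 0 than that of all features there. In bins 2, 3 and 4 it was -0.39, -0.36 and -0.26, on 23, 6 and 25 features. In bins 5 to 8 it was -0.10, -0.028, 0.0032 and -0.10, on 32, 32, 15 and 28 features, and in bins 6 and 7 the groups of library medians overlapped. In bin 9 it was -0.27 (21 features), lower than that of all features, and in bin 10 it was -0.24 (26 features).

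**Figure D2:**
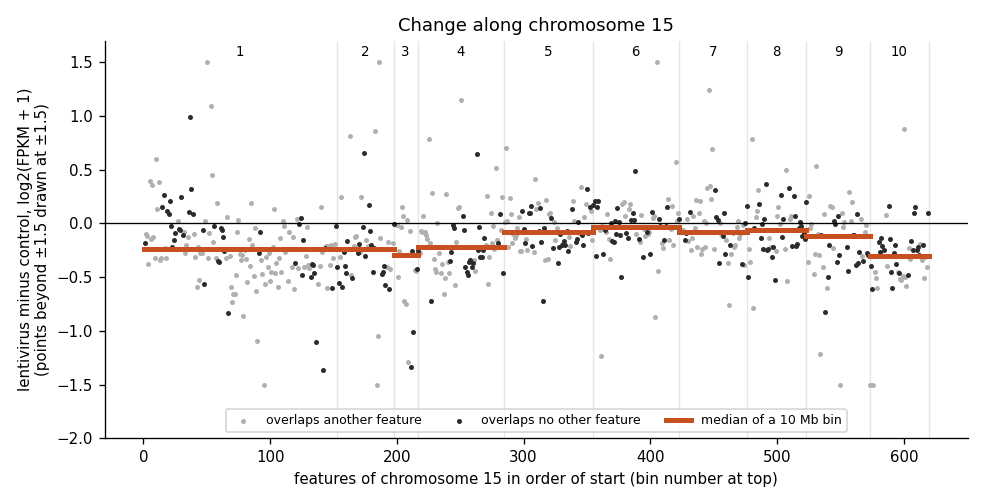
Lentivirus minus control change on the log2(FPKM + 1) scale for each of the 619 features, in order along chromosome 15; black points overlap no other feature, grey points overlap at least 1, points beyond 1.5 in either direction are drawn at that limit, and orange bars are medians of 10 Mb bins. The bars lie at -0.22 to -0.29 in bins 1 to 4, at -0.038 to -0.079 in bins 5 to 8, at -0.12 in bin 9 and at -0.31 in bin 10.

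The groups were apart in the low bins library by library. In bin 1 the library medians averaged 0.13 ± 0.028 log2 (SD, n = 3) in control libraries and -0.12 ± 0.0034 in lentivirus libraries. In bin 3 they averaged 0.17 ± 0.016 and -0.18 ± 0.039, and in bin 10 they averaged 0.16 ± 0.043 and -0.16 ± 0.029. In bin 6 the corresponding values were 0.012 ± 0.037 and -0.0094 ± 0.0042, and there the groups overlapped. The groups did not overlap in the other 9 bins, although in bins 5, 7 and 8 the means of the library medians differed by under 0.1 log2.

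**Figure D3:**
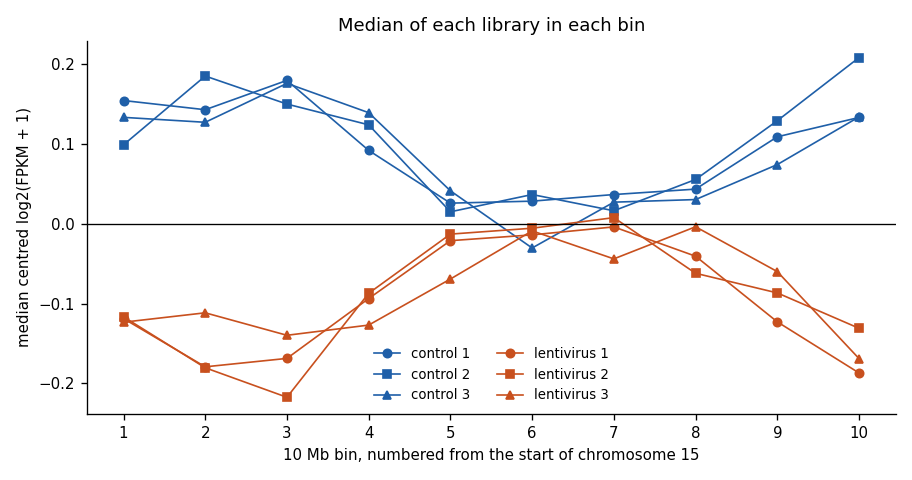
Median over features of centred log2(FPKM + 1) in each 10 Mb bin of chromosome 15, with 1 line per library (blue, control; orange, lentivirus-treated). Control and lentivirus lines are widest apart in bins 1 to 4 and in bin 10 and meet in bin 6.

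Joined into 3 stretches, a grouping made after the bin values had been seen, the features divided as follows. From 0 to 40 Mb, 230 of 284 features (81.0%) had a lower lentivirus mean, with a median ratio of 0.832, and 58 were called lower (20.4%) and 2 higher. From 40 to 80 Mb, 141 of 238 (59.2%) were lower, with a median ratio of 0.945, and 12 were called lower (5.04%, near the 3.59% of the whole table) and 2 higher. From 80 Mb to the end, 76 of 97 (78.4%) were lower, with a median ratio of 0.813, and 24 were called lower (24.7%) and 0 higher. The difference between stretches was not tested, since they were drawn on the same values.

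Bins of 5 Mb placed the shift more closely. The first 5 Mb had a median of only -0.099 log2 over 67 features, and the next 5 Mb one of -0.34 over 85 features, of which 91.8% were lower and 29 were called lower. From 35 to 40 Mb the median was -0.19 over 26 features, and from 40 to 45 Mb it was -0.047 over 39. Within the middle of the chromosome, the 18 features from 65 to 70 Mb stood lower than their surroundings, with a median of -0.18, but they are fewer than 20. At the far end, the medians of the bins starting at 80, 85 and 90 Mb were -0.12, -0.11 and -0.31. The bins from 5 to 10 Mb and from 90 Mb on together held 131 of the 619 features (21.2%) and 47 of the 94 called falls.

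Long runs of neighbours on the lower side were seen among the 252 features that overlap no other. The longest held 22 consecutive features, from 5608777 to 16952339, all with a lower lentivirus mean. A second run of 21 lay between 17684638 and 33209936, and runs of 13 and 10 lay near the end, from 88498725 to 90449346 and from 90559134 to 91401866. There were 7 runs of 8 or more, all on the lower side. The middle stretch held 1 of them, of 10 features, from 44490137 to 47968291. Of the 252 features, 186 (73.8%) were lower, which favours runs on the lower side in any order, so their side is no separate result. The lengths of the runs were not tested against that share. Of the 251 pairs of consecutive features, 172 (68.5%) had changes of the same sign and Pearson's r between neighbours was 0.32. The share of lower features makes like signs common in any order, and the 68.5% was not tested against it. After the median of its 10 Mb bin was taken from each feature, 131 pairs (52.2%) had the same sign and r was 0.25. These pairs come from the same 6 libraries, and neighbours can be parts of one gene.

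Set beside the whole genome, 10 Mb bins this low were few. Of 282 bins with at least 15 tested features on the numbered chromosomes and X, 10 had a median change below -0.2 log2. Chromosome 15 held 5 of these 10, chromosome 26 held 3 and chromosome 14 held the other 2. The only bin below -0.3 was bin 10 of chromosome 15. Its 46 features lie between 89939276 and 91744925, so it is much shorter than a full bin. On the TPM scale its median was -0.26. Among 30 chromosomes, the median change of chromosome 15 was the second lowest, after chromosome 26 (-0.18 log2, 75.1% of 690 features lower). Chromosome 20 stood at the other extreme, with a median of 0.11 and 30.7% of 2116 features lower. All chromosomes were measured in the same libraries, so these values are not independent.

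By expression level, the median change was below 0 in each class and, on the log2 scale, nearest 0 in the lowest. Features with means of 1 to 2 FPKM had a median change of -0.055 log2 (72 features, 61.1% lower, median ratio 0.925). From 2 to 5 FPKM the median was -0.14 (107 features, 68.2% lower, ratio 0.881) and from 5 to 10 FPKM it was -0.13 (106 features, 63.2% lower, ratio 0.928). From 10 to 50 FPKM it was -0.20 (224 features, 77.7% lower, ratio 0.861), and at 50 FPKM or more it was also -0.20 (110 features, 80.9% lower, ratio 0.866). Elsewhere in the genome the medians of the same classes lay between -0.0045 and 0.0087 log2. A log2 change with a pseudocount of 1 understates the change of low features, and by the ratios of means the classes of 1 to 2 and 5 to 10 FPKM were nearly equal.

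**Figure D4:**
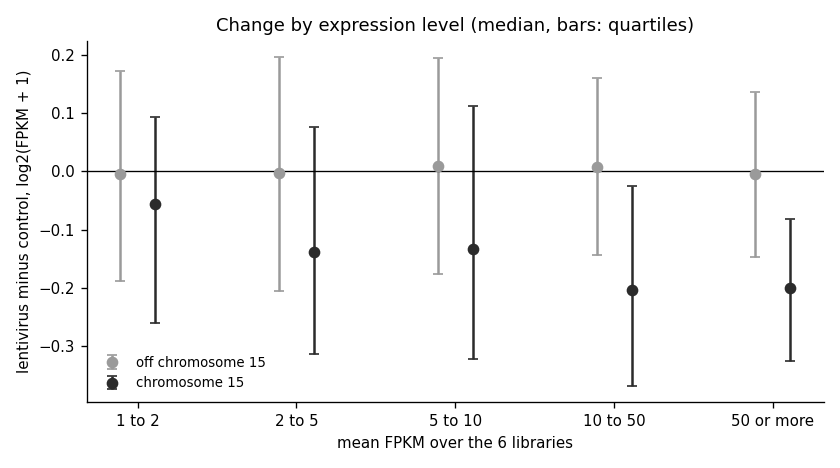
Lentivirus minus control change on the log2(FPKM + 1) scale by class of mean FPKM, for chromosome 15 (black) and all other tested features (grey); points are medians over features and bars run from the lower to the upper quartile. Chromosome 15 medians run from -0.055 in the lowest class to -0.20 in the highest 2, and the others stay between -0.0045 and 0.0087.

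The dependence on level differed with position. From 0 to 40 Mb the medians of the classes from 2 FPKM upwards were -0.24, -0.23, -0.26 and -0.28 log2, while the 38 features of 1 to 2 FPKM had -0.046. From 80 Mb on, the 2 highest classes had -0.29 and -0.36, on 31 and 15 features. From 40 to 80 Mb, features of 2 to 5 and 5 to 10 FPKM had medians of 0.066 and 0.070, and those of 10 to 50 FPKM and above had -0.080 and -0.10. The 25 features of 1 to 2 FPKM in this middle stretch had -0.058. The groups of library medians overlapped in the classes under 10 FPKM of the middle stretch and in the lowest class from 0 to 40 Mb. In the class of 2 to 5 FPKM of the middle stretch they averaged 0.0048 ± 0.027 in control and 0.010 ± 0.054 log2 in lentivirus libraries. The differences between classes and stretches were not tested.

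Over the whole chromosome, features that overlap no other had a median close to that of crowded ones, although single bins differed. Their median change was -0.17 log2 (73.8% of 252 lower, median ratio 0.873), and that of the 367 overlapping features was -0.16 (71.1% lower, ratio 0.886). The median SD within groups was 0.094 log2 for the former and 0.15 for the latter, so the former are measured with less error. Restricted to features that overlap no other and have at least 10 FPKM, 86 of 114 (75.4%) were lower, with a median of -0.20 and a ratio of 0.865, against 48.6% of 4561 such features elsewhere. In the 3 stretches from start to end, features that overlap no other had medians of -0.25, -0.082 and -0.24.

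ENSP and JK features moved alike in size but not in precision. The 320 ENSP features had a median change of -0.17 log2 and 75.9% were lower, and the 299 JK features had -0.15 and 68.2%. The median SD within groups was 0.082 log2 for ENSP and 0.19 for JK, and 69 ENSP features fell (21.6%) and 2 rose, while 25 JK features fell (8.36%) and 2 rose. Elsewhere in the genome ENSP features were also called more often, with 4.99% lower and 4.10% higher against 1.84% and 1.89% of JK features. Length made little difference: the medians were -0.13 for features under 500 bases, -0.15 from 500 to 5000, -0.21 from 5000 to 50000 and -0.15 for longer ones.

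The largest fall among features that overlap no other and meet the rule for naming (called, with groups that do not overlap, no library under 1 FPKM and the higher group averaging 5 FPKM or more, met by 40 falls and 3 rises) was that of ENSP00000323588_1, from 7674869 to 7675826. Its FPKM values were 24.1, 22.5 and 22.9 in control libraries and 10.5, 10.8 and 9.51 in lentivirus libraries. The lowest control value was over 2 times the highest lentivirus value. The log2 change was -1.10 with SE 0.064 (limma adjusted p = 0.0061), and the feature kept its call without any 1 library (limma adjusted p = 0.0285 to 0.0496). ENSP00000315064_1, from 4706475 to 4707399, had 72.7, 70.7 and 74.6 FPKM in control and 38.5, 42.5 and 40.3 FPKM in lentivirus libraries. It fell by 0.83 log2 with SE 0.052 (limma adjusted p = 0.0067) and also kept its call without any 1 library (limma adjusted p = 0.0329 to 0.0496).

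The next falls were smaller and lay mostly in the first 20 Mb. The feature from 19586750 to 19605774 fell from 8.50 ± 0.705 to 5.23 ± 0.401 FPKM (SD, n = 3 per group). Near the far end, the one from 90634261 to 90647294 fell from 20.8 ± 1.32 to 13.3 ± 0.955 FPKM. A feature of higher level, from 9822449 to 9824354, fell from 194.3 ± 21.0 to 127.5 ± 7.83 FPKM. Of these, the first and the third had log2 changes of -0.61 and -0.60, and the second one of -0.60. The features from 19310693 to 19311707, from 76748542 to 76873613 and from 12363276 to 12402905 fell by 0.57, 0.52 and 0.51 log2. Limma adjusted p for these 6 ran from 0.020 to 0.043, and none of the 6 kept its call without any 1 library.

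**Figure D5:**
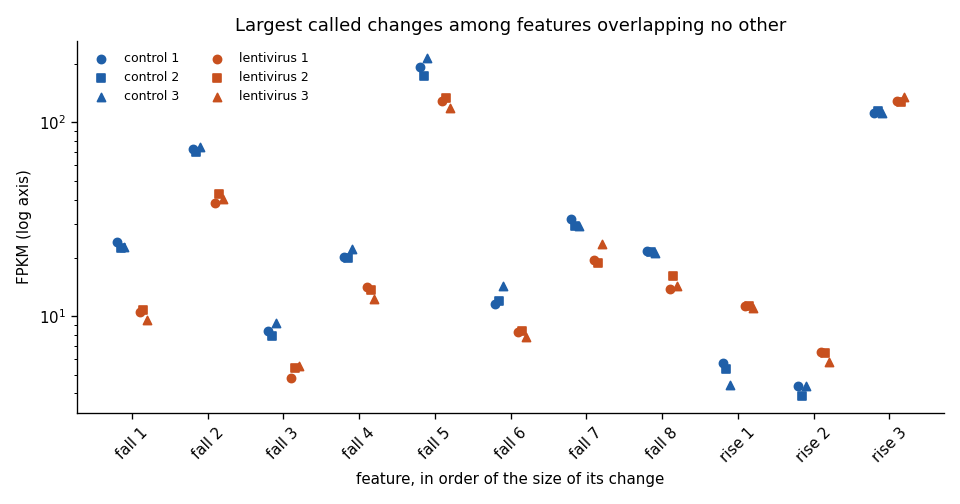
FPKM in each library, on a log axis, for the 8 largest falls and the 3 rises that met the rule for naming, in order of the size of the change (blue, control; orange, lentivirus-treated; the marker shape gives the replicate number). The groups do not overlap in any of the 11, and the widest gap is that of the first fall, at 22.5 to 24.1 against 9.51 to 10.8 FPKM.

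Called falls of at least 1 log2 were rare. Besides ENSP00000323588_1, 2 called features reached that size, and they are given here although they miss the rule. One, from 85386220 to 85416224, overlaps another feature and fell by 1.73 log2, from values of 21.1, 19.0 and 23.0 FPKM in control to 3.73, 7.20 and 6.56 FPKM in lentivirus libraries (limma adjusted p = 0.021). The other, from 23714437 to 23777545, overlaps no other but averaged under 5 FPKM in both groups, and it fell by 1.34 log2, from 3.99, 4.53 and 5.24 FPKM in control to 1.06, 1.41 and 1.15 FPKM in lentivirus libraries (limma adjusted p = 0.014).

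Only 4 features rose, and 3 of them overlap no other. ENSP00000231790_1, from 2364740 to 2418157, had 5.76, 5.37 and 4.42 FPKM in control and 11.3, 11.3 and 11.1 FPKM in lentivirus libraries. It rose 2.17-fold in linear means (log2 change 0.99, SE 0.097, limma adjusted p = 0.014), and it kept its call without 1 of the 6 libraries only. It stands in the first 5 Mb, where the median of its neighbours was nearer 0. ENSP00000249883_1, from 56006301 to 56019990, had 4.37, 3.87 and 4.38 FPKM in control and 6.52, 6.48 and 5.84 FPKM in lentivirus libraries, a rise of 0.48 log2 with SE 0.080 (limma adjusted p = 0.035). The feature from 51193392 to 51197355 rose from 112.6 ± 1.60 to 130.0 ± 4.14 FPKM, which is 0.20 log2 (limma adjusted p = 0.045). Neither of these 2 kept its call without any 1 library. The fourth, from 18573016 to 18575063, overlaps 5 other features, was listed under 0.04 FPKM in each control library and had 3.49, 14.3 and 4.66 FPKM in lentivirus libraries (limma adjusted p = 0.035). No fold is given for it.

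The most abundant feature without overlap in each bin is given as a single example, and some of these features went against the median of their bin. From 34817627 to 34885034 (bin 4), the values were 74.2, 78.8 and 74.8 FPKM in control and 55.9, 55.7 and 54.0 FPKM in lentivirus libraries, a fall of 0.45 log2 with SE 0.041 (limma adjusted p = 0.014). From 21339385 to 21416772 (bin 3), it fell from 31.3 ± 1.03 to 25.4 ± 0.214 FPKM (limma adjusted p = 0.027). In the middle of the chromosome, the feature from 48691233 to 48691617 (bin 5) had 209.6 ± 7.81 FPKM in control and 211.9 ± 5.09 in lentivirus-treated cells, and its change of 0.016 log2 was smaller than its SE of 0.043. The feature from 55895969 to 55900256 (bin 6) had 257.7 ± 17.2 and 262.4 ± 9.63 FPKM, with a change of 0.027 log2 and SE 0.062. In both, the groups overlapped.

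In bin 7 the most abundant feature without overlap, from 68599422 to 68599572, had 879 ± 115 and 675 ± 68.2 FPKM and was not called (log2 change -0.38, limma adjusted p = 0.13). Close to it, a feature from 68484621 to 68565946 fell by 0.29 log2, from 218.7 ± 7.46 to 179.2 ± 6.85 FPKM (limma adjusted p = 0.034). In bin 8, the values from 79761241 to 79761667 were 174.1 ± 4.36 and 157.7 ± 9.58 FPKM (log2 change -0.14, limma adjusted p = 0.19). In bin 9, the feature from 81390732 to 81390885 fell by 0.50 log2, from 558.7 ± 44.2 to 395.9 ± 33.4 FPKM (limma adjusted p = 0.040).

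The short features that were most abundant in bins 2 and 10 were too variable to show a difference. From 17029963 to 17030026 the values were 87.7, 149.4 and 64.2 FPKM in control and 90.3, 239.4 and 153.8 FPKM in lentivirus libraries (log2 change 0.66, limma adjusted p = 0.45). From 91401765 to 91401866 they were 64.6, 71.9 and 119.0 FPKM in control and 54.9, 99.7 and 59.9 FPKM in lentivirus libraries (log2 change -0.25, limma adjusted p = 0.70). In both, the groups overlapped.

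At the 1 FPKM limit, the last feature without overlap inside it, from 39243068 to 39265139, had 0.951 ± 0.048 FPKM in control and 1.08 ± 0.123 FPKM in lentivirus-treated cells. The first outside it, from 90974702 to 90989006, had a mean of 0.997 FPKM over the 6 libraries. Of the 257 chromosome 15 features under the limit, which were not tested, 155 had a lower and 102 a higher lentivirus mean. A value under 0.0001 FPKM in at least 1 library occurred in 10 of the 619 features, and 1 of these was called.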

How the data were processed

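RNA from 6 COS-1 libraries (3 control, 3 lentivirus-treated) was compared. The authors deposited 1 table of FPKM values, with 1 column per library; the columns were matched to samples by name. The tools named per the submitters' processing notes are Cufflinks 2.1.1 with Cuffdiff, Bowtie2 2.1.0.0, TopHat2 2.0.10 and CASAVA. Their roles, the genome build, the handling of strand and any scaling between libraries are not given there. Overlap was counted against all 51520 features, regardless of strand.

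Features averaging 1 FPKM or more were tested on log2(FPKM + 1) with limma 3.58.1 in R 4.3.3 (trend = TRUE in eBayes), with group as the only term and Benjamini-Hochberg adjustment over 28434 features. Bins took features by their midpoint. An exact permutation test of 3 against 3 cannot go below p = 0.10. Members, lists and rules were chosen with earlier results of these data known. Named features are the 8 largest falls, up to 4 largest rises (3 met the rule), 5 most abundant, the most abundant per bin and those at the limit, all without overlap. On data simulated for this comparison over 28434 features, 19.4% of changes of 0.5 log2, 74.6% of 1 and 84.8% of 2 were recovered, with 6 false calls. The changes were planted in 67, 67 and 66 features, far fewer than the 1842 called in the data. The adjustment depends on that number, so these shares need not hold for the data. Alternatives covered scale, pseudocount, filter, summed overlapping features, prior, replicate block and each library left out.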

Additional observations from a re-analysis of the deposited data

How the results depend on the processing

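The median change of chromosome 15 and of its features without overlap stayed negative under every alternative run. On the TPM scale they were -0.12 and -0.12 log2 with 70.6% of features lower, at a pseudocount of 0.1 they were -0.19 and -0.19, at 5 they were -0.11 and -0.095, and with no filter -0.077 and -0.082 with 66.7% lower and 62 called lower. With at least 5 FPKM the first was -0.19 and 75.0% were lower, and with overlapping features summed 75.1% were lower and 11 were called higher. The median change of all tested features was -0.00097 log2 as deposited and between 0.0025 and 0.016 under the other scalings. TPM values are smaller than the deposited FPKM, whose columns have larger totals, so the pseudocount of 1 weighed more on that scale. A change of scale and of pseudocount are thus mixed in the TPM values. Without 1 library, 3 to 4 features were called lower and 0 to 2 higher, 70.6% to 72.1% were lower, and the 2 medians ran from -0.17 to -0.15 and from -0.17 to -0.14.

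Expression classes from 2, 5, 10 and 50 FPKM had medians of -0.097, -0.098, -0.17 and -0.18 on the TPM scale. Those from 2 and 5 FPKM had -0.19 and -0.15 at a pseudocount of 0.1, and those from 2, 5 and 10 had -0.075, -0.086 and -0.17 at 5. Without 1 library, the classes from 1, 2, 5 and 10 FPKM ranged from -0.089 to -0.013, -0.17 to -0.11, -0.15 to -0.10 and -0.21 to -0.18. Bins 1 and 4 had -0.20 and -0.19 on the TPM scale, bin 7 had -0.046 under quantile normalization and bin 2 had -0.31 at a pseudocount of 0.1. At a pseudocount of 5, bins 1, 2, 4 and 10 had -0.18, -0.16, -0.14 and -0.24. With no filter, bins 1 to 4 had -0.13, -0.15, -0.074 and -0.069 and bins 7 to 9 had -0.00036, -0.034 and -0.059. With at least 5 FPKM, bins 1, 2, 8 and 10 had -0.27, -0.31, -0.13 and -0.40. Without 1 library, bins 1, 3, 4 and 5 ranged from -0.28 to -0.24, -0.36 to -0.29, -0.24 to -0.19 and -0.094 to -0.025, and bins 7, 8 and 9 from -0.10 to -0.022, -0.11 to -0.054 and -0.26 to -0.13.

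Same-numbered libraries had correlations of their deviations of 0.13, -0.028 and 0.0028, against -0.14 to 0.13 for libraries of unlike number. Deviations were taken within groups of 3 libraries, so these values cannot settle whether libraries were prepared in pairs. The labels do not say so either, and the replicate block covers the case that they were. With the replicate block, limma called 0 features lower and 0 higher (smallest adjusted p = 0.12), with 185 and 21 at an unadjusted p under 0.05. The shares of all tested features at that unadjusted p in this fit are not given here, so nothing is read from the 185 and 21. Of the named features, 3 uncalled ones changed sign without 1 library. From 48691233 to 48691617 the change was -0.0018 without control replicate 1 and -0.0039 without lentivirus replicate 1, and at most 0.046. From 55895969 to 55900256 it was -0.029 without control replicate 2 and -0.0024 without lentivirus replicate 1, and at most 0.056. From 91401765 to 91401866 it was 0.016 without control replicate 3, with -0.51 as its lowest value. Depth is unknown and limits low features in a way that cannot be computed.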
